A study of Saccharomyces cerevisiae with 9 samples.

Results

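Each gene's transcript level in the hybrid yeast strain Hyb-8 was compared with the mid-parent value, which is the average of the mean levels in Sun049T-Z and Sun224T-K, its parental strains. The contrast was computed for 5947 of the 6256 genes on the array, from 9 arrays with 3 per strain. A level is the log2 intensity of a gene's probe minus the 75th percentile of its array, averaged over the 7 spots of the probe. The departure of a gene is its mean Hyb-8 level minus the mid-parent value, on the log2 scale. At 0 the level is the mid-parent value, and at 1 it is 2-fold above. Beside the departure stands the parental offset, the distance from the mid-parent value to the mean of Sun224T-K (the mean of Sun049T-Z lies equally far on the other side). A departure equal to the offset puts Hyb-8 at the level of Sun224T-K, and a larger departure of the same sign puts it outside both parental strains. The departure and the offset share the 6 parental arrays, so their values are given side by side and no relation between them is tested.

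The 3 strains are xylose-fermenting Saccharomyces cerevisiae, and the labels call the parental strains diploid. According to the study's methods, industrial strains with thermotolerance (Sun049) or acid tolerance (Sun224) received a plasmid with XYL1 and XYL2 of Scheffersomyces stipitis, XKS1 and a clonNAT resistance gene. In Sun049T-Z, 1 HO copy was replaced by a zeocin resistance cassette (loxP-Sh Ble-loxP), and in Sun224T-K by a G418 resistance cassette (loxP-KanMX-loxP). Hyb-8 was isolated from UV-treated pools of both strains that were sporulated and mated, and it carries both markers. It is therefore 1 selected clone of a shuffled and mutagenised genome, not a simple cross of the 2 strains measured. All 9 RNA samples were taken 3 h after dense cell suspensions were put into xylose medium (50 g/L) with acetic acid (20 mM) and formic acid (15 mM) at 38°C. The preculture is described with clonNAT, zeocin and G418 for all strains alike, followed by culture in clonNAT alone.

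A hybrid in which every allele acts independently has transcript amounts at the average of its parents, and such levels are called additive. Levels away from that average arise where alleles are dominant, where a regulator of 1 parent acts on the genes of both, where gene copies are unequal, or where new mutations are present. Yeast controls large sets of genes together (iron uptake through Aft1, sterols through Upc2, respiration through the Hap complex, chaperones through Hsf1), so that departures are most easily read by function. Here 52 lists of genes by function were used, and each list is described by its counts and its median.

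The methods give triplicate arrays and do not say if each had its own fermentation, so p-values measure the spread between these arrays, which may be technical. The 75th-percentile intensity ranged from 1044 to 4830, and the share of spots well above background from 90.2% to 96.5%. Replicate 1 of Sun049T-Z had the lowest value of both and a spot SD of 0.324 against at most 0.067 on the others. In limma's estimate of array quality it had the lowest weight (0.188), followed by Sun224T-K replicate 2 (0.239) and Hyb-8 replicate 2 (0.387). The remaining weights were 0.726 to 5.32. The arrays lay on 4 slides, and only slides 2 and 3 held all 3 strains. The labels give Sun049T-Z as the control and Sun224T-K and Hyb-8 as PHO13 deleted. The log2 level of PHO13 (YDL236W, chromosome IV) by label was -3.78 ± 0.10 in Sun049T-Z (SD, n = 3 here and next), -1.56 ± 0.31 in Sun224T-K and -1.72 ± 0.019 in Hyb-8. PHO13 was thus lowest in the strain labelled as the control, and higher in both strains labelled as deleted, so that it went against the labels of all 3 strains. The study's methods and strain table name no PHO13 deletion in any strain. It was not checked whether the probe lies in the deleted part of the gene. Strain names here mean the arrays labelled so. Were the labels of the parental strains exchanged, the mid-parent value would be the same, but which of them Hyb-8 resembles would change. Were Hyb-8 exchanged with a parental strain, every departure would change, and these arrays do not settle this. Of the 16 mating-type and haploid-specific markers, 10 were well above background on all 9 arrays and MF(ALPHA)2 on none, and their summed linear level (in units of the 75th percentile) was 1.26 to 1.39 in Sun049T-Z, 0.667 to 0.757 in Sun224T-K and 0.775 to 0.952 in Hyb-8.

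In limma with Benjamini-Hochberg adjustment over all 5947 genes, 1041 genes (17.5%) were above the mid-parent value and 1047 (17.6%) below it at an adjusted p under 0.05. At 2-fold or more, 184 genes (3.09%) were above and 133 (2.24%) below, 317 (5.33%) together. The median departure over all genes was 0.031, and the median size of the departure regardless of sign was 0.273. By the means, most genes that passed lay outside the parental range rather than off-centre within it. Of the 1041 genes above, the Hyb-8 mean was above both parental means for 781 and between them for 260, of which 252 were nearer to Sun224T-K and 8 nearer to Sun049T-Z. Of the 1047 genes below, 770 were below both parental means, 273 between and nearer to Sun224T-K, and 4 between and nearer to Sun049T-Z. Among the 2-fold genes, 144 of 184 were above both means and 88 of 133 below both, and each of the others was nearer to Sun224T-K. Over all 5947 genes tested, the Hyb-8 mean was above both parental means for 1700 (28.6%) and below both for 1483 (24.9%). It was between them and nearer to Sun224T-K for 2070 (34.8%), and between and nearer to Sun049T-Z for 694 (11.7%). These places are descriptions, since the Hyb-8 arrays fix both the departure and the place. Every Hyb-8 array lay above all 6 parental arrays for 370 genes (6.22%) and below all 6 for 406 (6.83%). With the slide as a fixed block, which leaves out Sun049T-Z replicate 1 and Hyb-8 replicate 2 in effect, 910 genes were above and 944 below, and without Hyb-8 replicate 3 only 686 were above and 692 below.

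**Figure D1:**
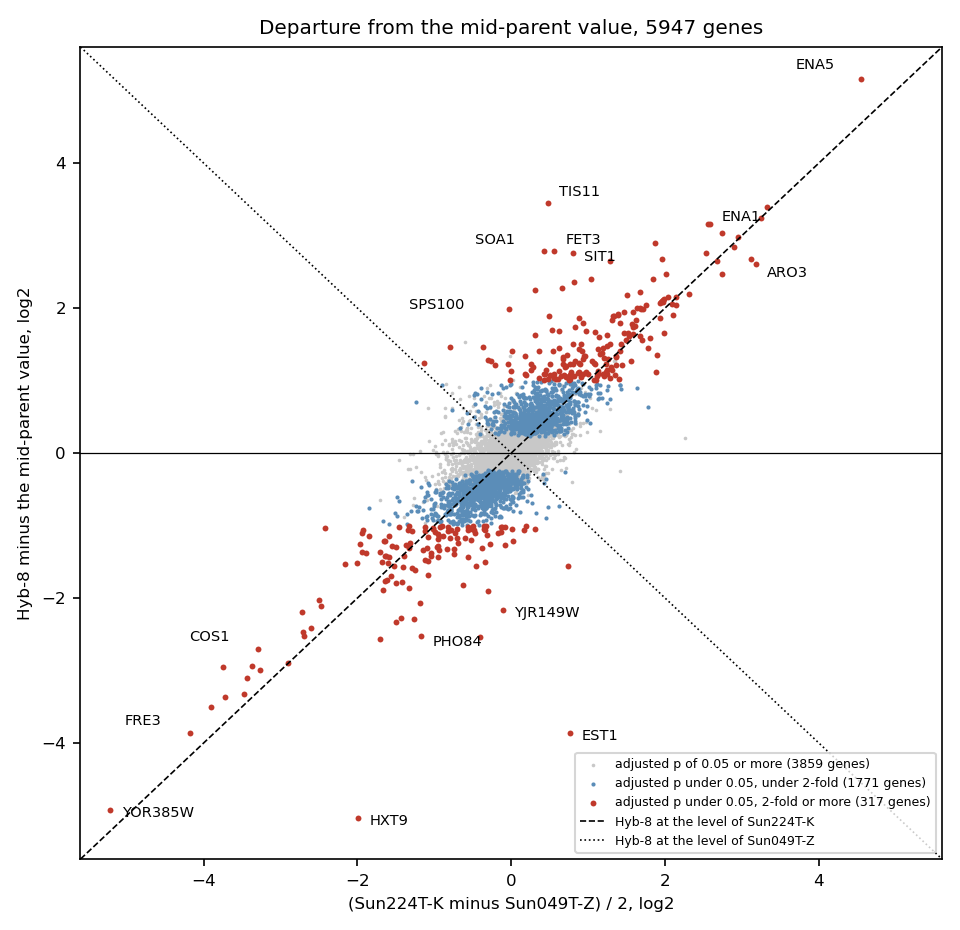
Departure of each of the 5947 genes (vertical axis, log2) against the parental offset (horizontal axis, log2), coloured by the test. Points on the dashed line have Hyb-8 at the level of Sun224T-K and points on the dotted line at the level of Sun049T-Z. The 184 genes above and 133 below by 2-fold or more include TIS11, FET3 and EST1 far from the dashed line, and none of them lies between the means nearer to Sun049T-Z.

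The counts of each list below stand against 17.5% of all genes above the mid-parent value and 17.6% below it. The lists with the highest medians were the subtelomeric helicases (1.49), the mitochondrially encoded genes (0.71), the COS proteins (0.62), iron uptake (0.52), peroxisomal fatty acid oxidation (0.44) and glycolysis (0.41). Those with the lowest were the mitochondrial chaperones (-0.46), the mitochondrial ribosomal proteins (-0.40), allantoin use (-0.37), the small heat shock proteins (-0.34), the HSP90 and HSP70 chaperones (-0.33) and thiamine synthesis (-0.33). In some lists the median departure resembled the median parental offset, and in others the offset was near 0. The helicases (offset 1.42), glycolysis (offset 0.46) and the HSP90 and HSP70 chaperones (offset -0.39) are among the former. Iron uptake (offset -0.015), peroxisomal fatty acid oxidation (offset 0.073) and the mitochondrial ribosomal proteins (offset -0.032) are among the latter, in which the parental strains had similar list medians and Hyb-8 departed from them.

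**Figure D2:**
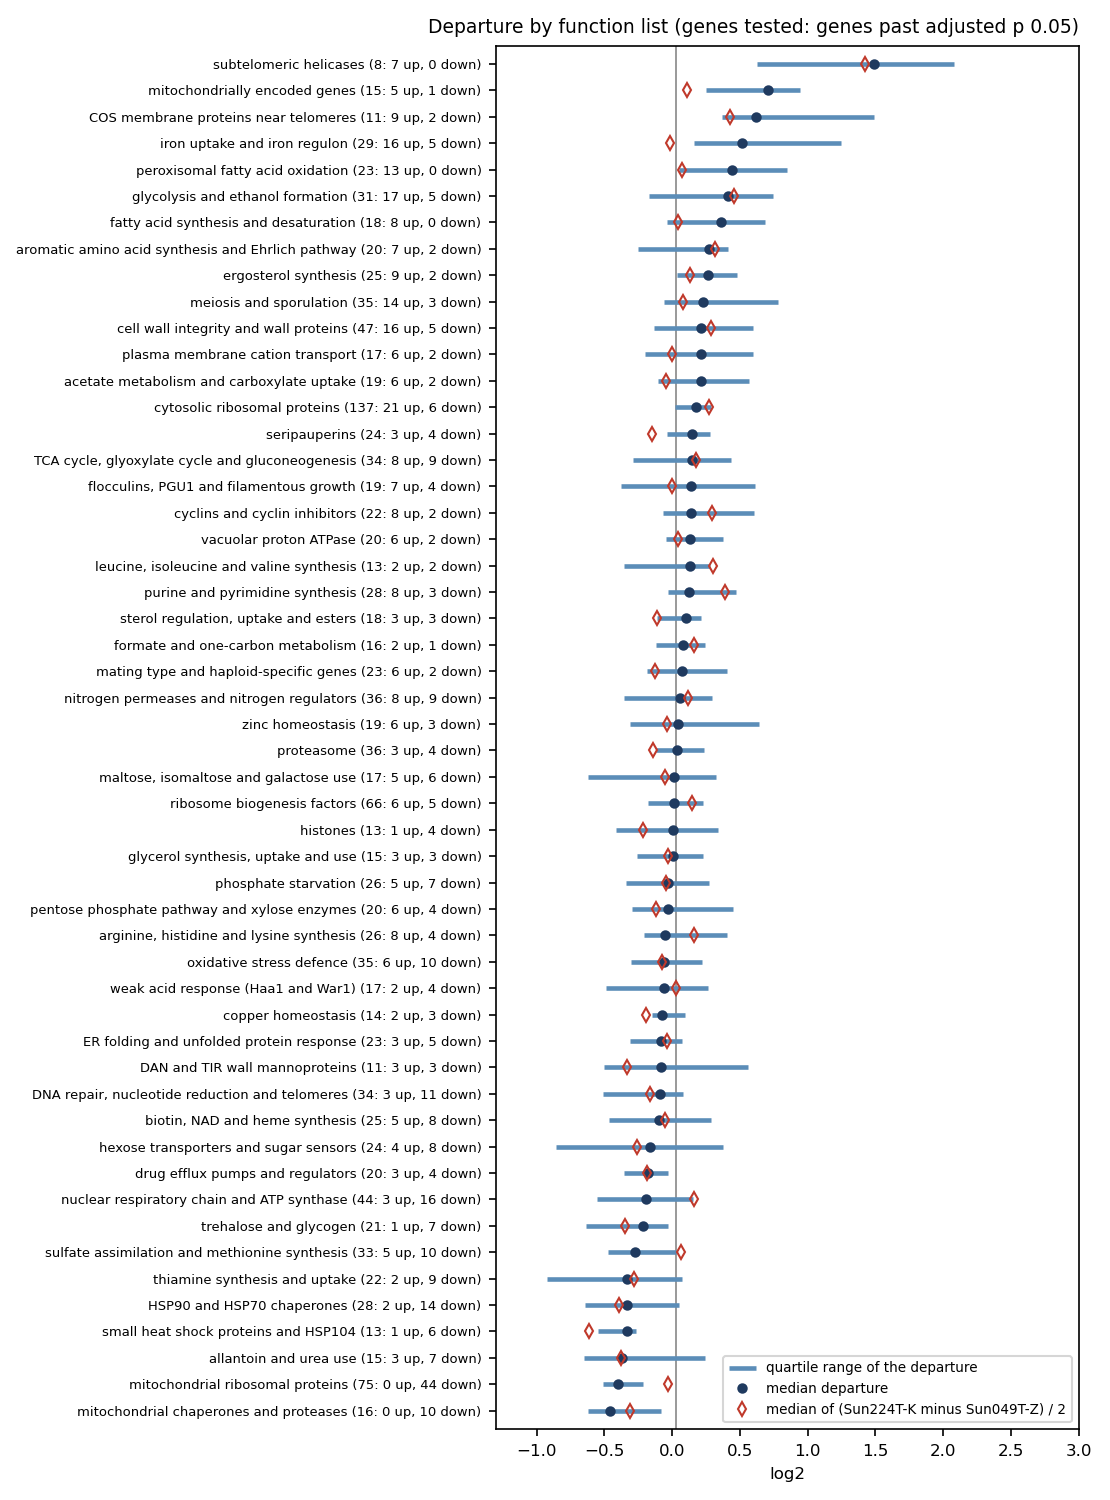
Median departure (filled circles) and its quartile range (bars) for the 52 function lists, with the median parental offset (open diamonds), on the log2 scale. The grey line marks the median departure of all genes, 0.031, and each label gives the genes tested and those past an adjusted p of 0.05 in each direction. Iron uptake and the mitochondrial ribosomal proteins have departures of 0.52 and -0.40 with offsets close to 0.

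Genes of iron uptake were among the highest of all departures in Hyb-8. Of 29 genes tested in this list, 16 were above the mid-parent value, 9 of them by 2-fold or more, and 5 were below, 3 of them by 2-fold or more. In 13 of the 29 all Hyb-8 arrays exceeded all 6 parental arrays, against 6.22% of all genes tested. The list's median was 0.52 (0.63 with the slide as a block, 0.73 within slide 2 and 0.48 within slide 3). The study chose TIS11, SIT1, FET3 and FTR1, and elsewhere IZH4, ERG25, ERG3, ARO10, RME1, IME1, ZTA1, PGU1 and DAN4, as raised in Hyb-8 on the same arrays, so their direction is not independent evidence. The level of TIS11 (YLR136C, chromosome XII), an mRNA-binding protein that lowers the transcripts of iron-using proteins when iron is scarce, was -3.48, -3.06 and -3.15 in Sun049T-Z, -1.94, -2.99 and -1.90 in Sun224T-K and 0.62, 0.72 and 0.75 in Hyb-8. The Hyb-8 arrays stood above all parental arrays without overlap, and the departure of 3.45 (standard error 0.23, adjusted p = 1.68e-05 from limma) corresponded to 10.9-fold over the mid-parent value, against an offset of only 0.48. FET3 (YMR058W, chromosome XIII), the multicopper oxidase of high-affinity iron uptake, was at -3.23, -2.94 and -3.19 in Sun049T-Z, -1.88, -2.11 and -2.01 in Sun224T-K and 0.57, -0.12 and 0.21 in Hyb-8. Its groups did not overlap, and its departure was 2.78 (standard error 0.15, adjusted p = 6.94e-06 from limma). The product of SIT1 (YEL065W, chromosome V) takes up the siderophore ferrioxamine B, and its levels were -0.66, -0.98 and -1.02 in Sun049T-Z, 0.84, 0.51 and 0.78 in Sun224T-K and 2.71, 2.67 and 2.61 in Hyb-8, with a departure of 2.75 (standard error 0.11, adjusted p = 1.15e-06 from limma). The 3 iron genes that fell by 2-fold or more were bright in Sun049T-Z and dim or almost dim in both other strains. FRE3 (YOR381W, chromosome XV), a ferric reductase, and the cell wall mannoproteins FIT2 (YOR382W, chromosome XV) and FIT3 (YOR383C, chromosome XV) were measured on all 3 Sun049T-Z arrays. FRE3 and FIT2 were well above background on no Sun224T-K or Hyb-8 array, and FIT3 on only 1 Sun224T-K and 2 Hyb-8 arrays. Their measured departures of -3.86, -3.10 and -2.95 stood beside offsets of -4.17, -3.44 and -3.75. With only probes well above background on all 9 arrays, FRE3, FIT2 and FIT3 leave the test.

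**Figure D3:**
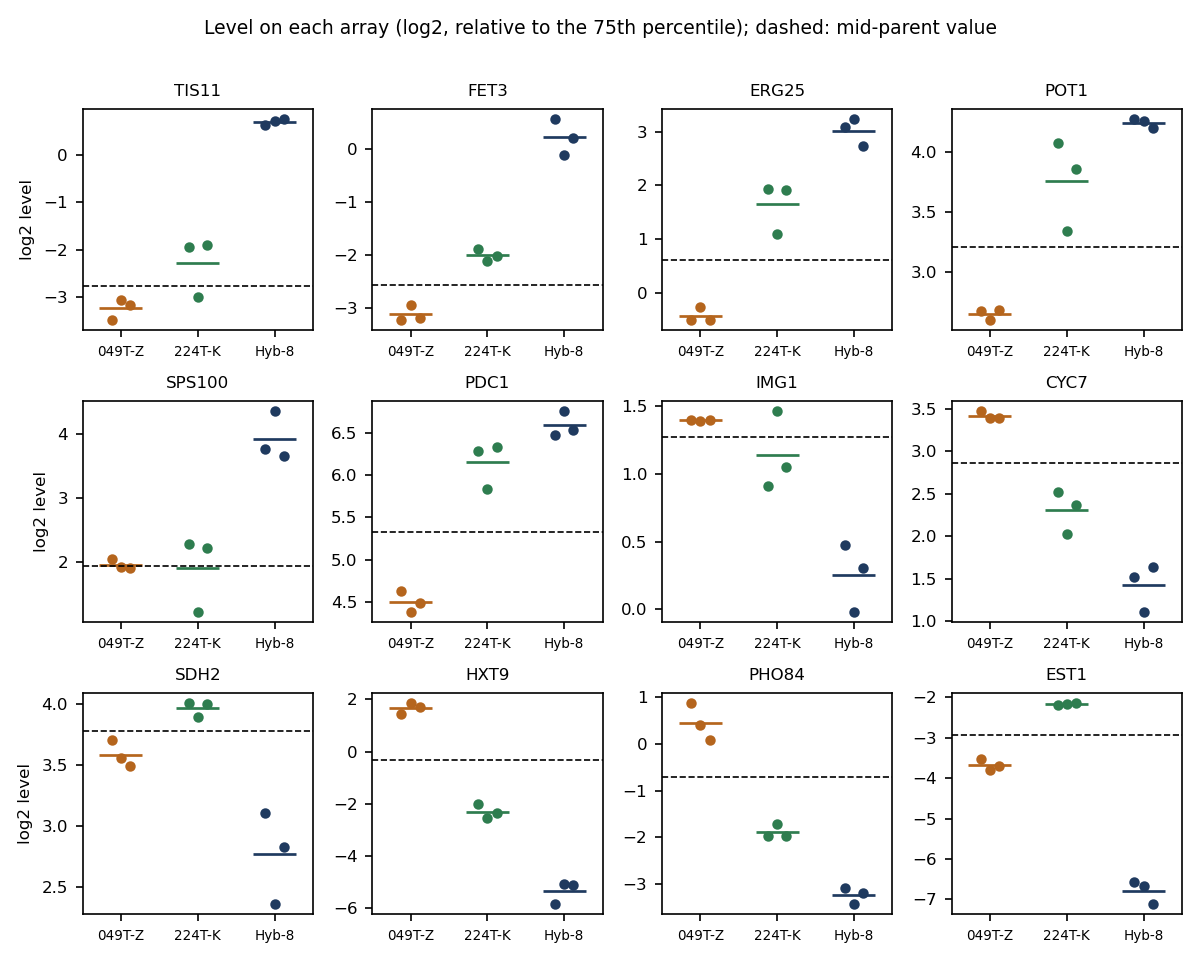
Log2 level, relative to the 75th percentile of the array, on each of the 3 arrays of each strain for 12 genes (vertical axes differ between panels). Points are arrays, short lines are strain means and dashed lines are mid-parent values. TIS11, FET3, ERG25, POT1, SPS100 and PDC1 have all Hyb-8 arrays above all parental arrays, whereas IMG1, CYC7, SDH2, HXT9, PHO84 and EST1 have all of them below.

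Of 19 zinc genes, 6 were above and 3 below (31.6% and 15.8%, against 17.5% and 17.6% of all genes). The level of IZH4 (YOL101C, chromosome XV), a membrane protein linked to zinc homeostasis, was -0.99, -1.0 and -0.94 in Sun049T-Z, -0.62, 0.064 and -0.51 in Sun224T-K and 0.75, 1.1 and 1.03 in Hyb-8, where every array exceeded all parental ones. Its departure was 1.62 (standard error 0.15, adjusted p = 9.66e-05 from limma), and those of its relatives IZH1 and IZH2 were 1.1 and 0.99, while that of the relative IZH3 was -0.48. The zinc transporter ZRT2 (-1.02) and the zinc-responsive activator ZAP1 (-0.42) were below the mid-parent value, both nearer to Sun224T-K. In the copper list 2 of 14 genes were above and 3 below (14.3% and 21.4%), near the shares of all genes. The high-affinity transporters CTR1 and CTR3 were above, by 1.35 and 0.68. SCO1 and COX17, which deliver copper to cytochrome c oxidase, were below, by -1.20 and -0.78. SCO1 and COX17 lay below all 6 parental arrays on every Hyb-8 array, whereas CTR1 lay between the parental strains. Heme oxygenase HMX1 (YLR205C, chromosome XII) departed by 1.36 (standard error 0.22, adjusted p = 0.00172 from limma) and the porphyrin transporter PUG1 (YER185W, chromosome V) by 1.33, while the synthesis enzymes HEM13 (YDR044W, chromosome IV) and HEM15 (YOR176W, chromosome XV) departed by -1.17 and -0.98. On every Hyb-8 array HMX1 and PUG1 lay above, and HEM13 and HEM15 below, all 6 parental arrays. In the whole list of biotin, NAD and heme genes, 5 of 25 were above (3 without Hyb-8 replicate 2) and 8 below.

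In ergosterol synthesis more genes rose than fell. Of 25 genes, 9 were above the mid-parent value and 2 below, with a median of 0.26 (0.25 with the slide as a block, 0.25 and 0.19 within slides 2 and 3). The C-4 methyl sterol oxidase ERG25 (YGR060W, chromosome VII) had levels of -0.51, -0.26 and -0.51 in Sun049T-Z, 1.93, 1.09 and 1.91 in Sun224T-K and 3.09, 3.24 and 2.72 in Hyb-8. No Hyb-8 array overlapped a parental one, and the departure was 2.41 (standard error 0.20, adjusted p = 6.04e-05 from limma), more than the offset of 1.04. ERG4 (YGL012W, chromosome VII), which catalyses the last step of the pathway, departed by 1.79 and the C-5 desaturase ERG3 (YLR056W, chromosome XII) by 1.68, again with every Hyb-8 array above all parental arrays. Lanosterol synthase ERG7 (YHR072W, chromosome VIII) was at 0.75, 1.24 and 1.37 in Sun049T-Z, 0.41, 0.18 and 0.44 in Sun224T-K and -0.38, 0.016 and 0.041 in Hyb-8. For ERG7 every Hyb-8 array was below all parental arrays, with a departure of -0.84 (standard error 0.16, adjusted p = 0.00352 from limma). Farnesyl pyrophosphate synthase ERG20 departed by -0.55, near its offset of -0.69. Among 18 genes of sterol regulation, uptake and storage, 3 were above and 3 below (1 without Hyb-8 replicate 2), led by the hypoxic repressor ROX1 (0.88) and the regulator SUT2 (-0.84).

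Fatty acid genes departed upwards in both synthesis and oxidation. In synthesis and desaturation, 8 of 18 genes were above the mid-parent value and 0 below by limma (0 also at an unadjusted p under 0.05). In peroxisomal oxidation, 13 of 23 were above and 0 below by limma (1 at an unadjusted p under 0.05). The medians were 0.36 and 0.44, and with the slide as a block 0.50 and 0.44. The 2 lists share FAA2. MGA2 (YIR033W, chromosome IX), a membrane-bound activator of the fatty acid desaturase gene OLE1, was at 0.29, 0.076 and 0.13 in Sun049T-Z, 0.82, 1.31 and 1.02 in Sun224T-K and 1.44, 2.09 and 1.58 in Hyb-8, which did not overlap either parental strain. Its departure was 1.09 (standard error 0.16, adjusted p = 0.00101 from limma). FAA3 (YIL009W, chromosome IX), which activates long-chain fatty acids, had an offset of only -0.02 and a departure of 1.01 (standard error 0.19, adjusted p = 0.00326 from limma). The 3 peroxisomal genes above by 2-fold or more are named next, and the quartiles of that list's departures were 0.053 and 0.85. Acyl-CoA oxidase POX1 (YGL205W, chromosome VII) departed by 1.06 and the thiolase POT1 (YIL160C, chromosome IX) by 1.04, while peroxisomal isocitrate dehydrogenase IDP3 (YNL009W, chromosome XIV), which supplies NADPH for unsaturated fatty acids, departed by 1.01. POT1 was at 2.68, 2.60 and 2.68 in Sun049T-Z, 4.08, 3.35 and 3.86 in Sun224T-K and 4.28, 4.26 and 4.20 in Hyb-8, so that the Hyb-8 arrays were close together above a wider spread in Sun224T-K. Leaving out any 1 array left 9 to 15 of the peroxisomal genes above the mid-parent value.

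The mitochondrial ribosome had more genes below the mid-parent value than any other of the 52 lists. Of 75 genes for its proteins, 44 were below (58.7%, against 17.6% of all genes), and 0 were above by limma (0 also at an unadjusted p under 0.05). By share, the shorter list of mitochondrial chaperones and proteases was higher, with 62.5% below. For 39 of the 75 ribosomal genes every Hyb-8 array lay below all 6 parental arrays, against 6.83% of all genes tested. Individual departures were small, with quartiles of -0.51 and -0.22, and 1 of them reached 2-fold. This gene, IMG1 (YCR046C, chromosome III), had levels of 1.40, 1.39 and 1.40 in Sun049T-Z, 0.91, 1.47 and 1.06 in Sun224T-K and 0.47, -0.018 and 0.31 in Hyb-8. The parental strains overlapped through Sun224T-K replicate 2 alone. Hyb-8 lay below both, with a departure of -1.02 (standard error 0.14, adjusted p = 0.000891 from limma). MRPL24 (YMR193W, chromosome XIII) followed with -0.86 and MRPL19 (YNL185C, chromosome XIV) with -0.82. The list's median of -0.40 was -0.32 with the slide as a block, -0.34 within slide 2 and -0.26 within slide 3. Leaving out any 1 array left 30 to 50 genes below.

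Among the nuclear genes of the respiratory chain more fell than rose, and 25 passed in neither direction. Of 44 genes, 16 were below and 3 above (1 without Sun049T-Z replicate 2 or 3 or Hyb-8 replicate 1 or 3), with a median of -0.19 (-0.12 with the slide as a block, -0.086 and -0.11 within slides 2 and 3). The lowest 3 were CYC7 (YEL039C, chromosome V), the minor cytochrome c (-1.44, standard error 0.14, adjusted p = 0.000133 from limma), COX5B (YIL111W, chromosome IX), the hypoxic form of cytochrome oxidase subunit 5 (-1.38), and the external NADH dehydrogenase NDE2 (YDL085W, chromosome IV) (-1.16). CYC7 and COX5B are the isoforms that yeast uses when oxygen is low. CYC7 was at 3.48, 3.39 and 3.39 in Sun049T-Z, 2.52, 2.03 and 2.37 in Sun224T-K and 1.53, 1.11 and 1.64 in Hyb-8, the lowest group without overlap. Of the subunits of succinate dehydrogenase, which the chain and the citrate cycle share, SDH1 (-0.66), SDH4 (-0.77) and SDH2 fell, and SDH3 did not pass (0.12). The iron-sulfur subunit SDH2 (YLL041C, chromosome XII) was at 3.70, 3.56 and 3.49 in Sun049T-Z, 4.01, 3.89 and 4.0 in Sun224T-K and 3.11, 2.36 and 2.83 in Hyb-8, below every parental array, and departed by -1.01 (standard error 0.15, adjusted p = 0.00104 from limma). The paralogue of the flavoprotein subunit, SDH9 (YJL045W, chromosome X), departed by -1.90 and lay below both parental means. The 3 genes above were COX13 (0.72), STF2 (0.68) and ATP15 (0.28). STF2 and ATP15 no longer passed under several alternatives. Mitochondrial chaperones and proteases showed the lowest median of all lists, -0.46, with 10 of 16 below and 0 above by limma (0 also at an unadjusted p under 0.05). The lowest were ZIM17 (-0.87), which assists mitochondrial Hsp70, the iron-sulfur cluster co-chaperone JAC1 (-0.72) and the protease subunit AFG3 (-0.69), each below all parental arrays on every Hyb-8 array.

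Genes encoded in the mitochondrial genome had a positive median that was lower with the slide as a block. Of 15, 5 were above (3 without Sun049T-Z replicate 3 or Sun224T-K replicate 1 or Hyb-8 replicate 2) and 1 below, and the median of 0.71 was only 0.31 with the slide as a block, 0.16 within slide 2 and 0.26 within slide 3. COX3 (Q0275, mitochondrial genome), a core subunit of cytochrome oxidase, was at 0.022, -0.34 and 0.068 in Sun049T-Z, 3.55, 3.92 and 4.33 in Sun224T-K and 4.14, 5.07 and 3.97 in Hyb-8. Hyb-8 overlapped Sun224T-K, and the departure of 2.47 (standard error 0.25, adjusted p = 0.000148 from limma) stood beside an offset of 2.01. The intron-encoded reading frames BI2 and AI1 had departures of 2.90 and -3.33, but BI2 was well above background on no Sun049T-Z array and AI1 on no Sun224T-K or Hyb-8 array.

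**Figure D4:**
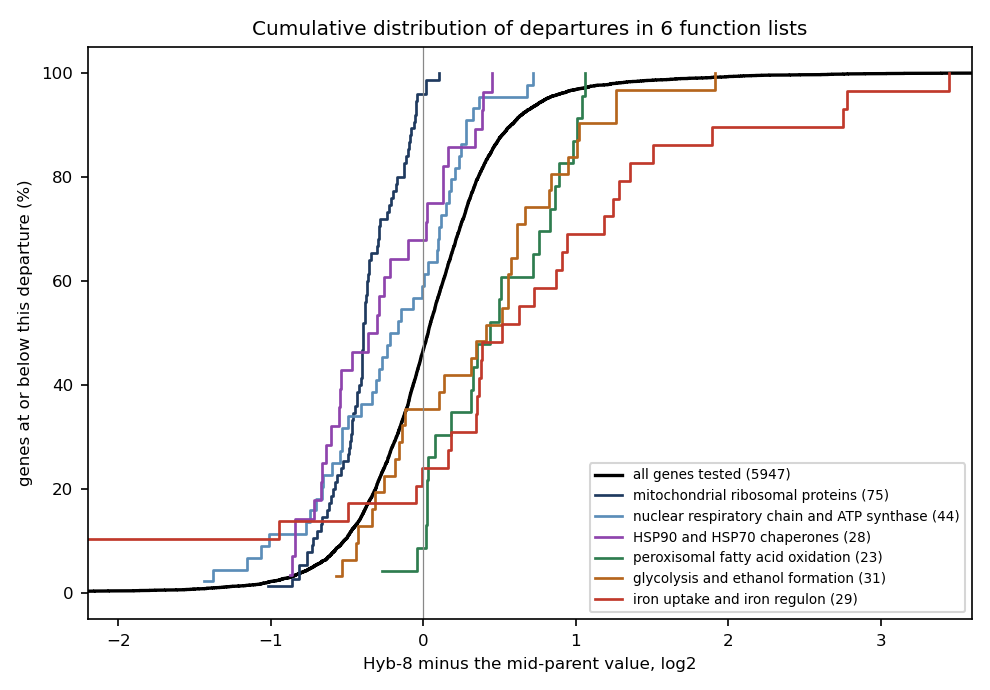
Cumulative share of genes (vertical axis, percent) at or below a given departure (horizontal axis, log2) for all 5947 genes and 6 function lists. The curve of the 75 mitochondrial ribosomal proteins lies to the left of all genes, with a median of -0.40, and those of peroxisomal fatty acid oxidation, glycolysis and iron uptake to the right, with medians of 0.44, 0.41 and 0.52 (FRE3, FIT2 and FIT3 lie beyond the left edge).

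In glycolysis and ethanol formation more genes rose than fell. Of 31 genes, 17 were above and 5 below (3 without Sun049T-Z replicate 2 or Hyb-8 replicate 3), and the median departure of 0.41 (0.42 with the slide as a block) stood beside a median offset of 0.46. The Hyb-8 mean was above both parental means for 10 of these genes, below both for 4 and between them for 17. The main pyruvate decarboxylase PDC1 (YLR044C, chromosome XII) had levels of 4.63, 4.38 and 4.49 in Sun049T-Z, 6.29, 5.83 and 6.34 in Sun224T-K and 6.48, 6.76 and 6.54 in Hyb-8. Its departure of 1.26 (standard error 0.13, adjusted p = 0.000165 from limma) exceeded its offset of 0.83, with Hyb-8 just above Sun224T-K. The minor isozyme PDC6 (YGR087C, chromosome VII) departed by 1.91 with an offset of 1.39. Alcohol dehydrogenase ADH2 (YMR303C, chromosome XIII), which oxidises ethanol, differed from these in that the parental strains overlapped, at 3.16, 3.52 and 3.46 in Sun049T-Z and 3.34, 1.98 and 3.24 in Sun224T-K, and Hyb-8 was higher at 4.15, 4.88 and 4.13. Its departure was 1.27 (standard error 0.30, adjusted p = 0.0105 from limma). Below were ADH5 (-0.57), the formaldehyde dehydrogenase SFA1 (-0.53) and PFK27 (-0.44), a kinase whose product activates glycolysis.

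Hexose transporters were scattered, with 4 of 24 genes above (16.7%) and 8 below (33.3%, but only 4 genes with the normexp background). The lowest departure among genes bright on all 9 arrays was that of HXT9 (YJL219W, chromosome X), a member of the hexose transporter family. HXT9 was at 1.45, 1.88 and 1.70 in Sun049T-Z, -2.03, -2.57 and -2.34 in Sun224T-K and -5.84, -5.08 and -5.13 in Hyb-8, a stepwise order without overlap and a departure of -5.03 (standard error 0.19, adjusted p = 1.12e-06 from limma). Opposite to it, HXT8 departed by 2.0 (offset 1.67) and the low-affinity glucose carrier HXT1 (YHR094C, chromosome VIII) by 1.08 (standard error 0.16, adjusted p = 0.00108 from limma). HXT1 was at -0.036, 0.55 and -0.035 in Sun049T-Z, 0.74, 0.55 and 0.24 in Sun224T-K and 1.28, 1.55 and 1.43 in Hyb-8, all of them above both parental strains. Members of this family are similar in sequence, HXT9 to HXT11 and HXT15 to HXT16 and HXT17 most of all, so signals between them may be shared. The isomaltases IMA2, IMA3 and IMA4, near-identical copies whose signals may be shared, departed by -2.29, -2.32 and -2.28 and lay below all parental arrays on every Hyb-8 array. In the maltose and galactose list as a whole, 5 of 17 genes were above (3 without Hyb-8 replicate 1) and 6 below.

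In the pentose phosphate pathway, through which xylose carbon enters metabolism, 6 of 20 genes were above (2 without Hyb-8 replicate 2, 3 without Hyb-8 replicate 1 or with the slide as a block) and 4 below. Transketolase TKL1 (YPR074C, chromosome XVI) departed by 0.91 and PHO13 by 0.95, both between the parental means and nearer to Sun224T-K. The aldose reductase GRE3 (YHR104W, chromosome VIII) departed by -0.97 and the sedoheptulose bisphosphatase SHB17 (YKR043C, chromosome XI) by -1.04, both slightly below Sun224T-K. In the citrate and glyoxylate cycles, 8 of 34 genes were above (23.5%) and 9 below (26.5%). The count above fell to 4 without Hyb-8 replicate 1 and to 5 without Hyb-8 replicate 3 or Sun224T-K replicate 3. The mitochondrial citrate synthase isoform CIT3 (1.23) and the gluconeogenic enzyme PCK1 (0.96) led the upward side. In acetate metabolism 6 of 19 genes were above and 2 below. Acetyl-CoA synthetase ACS2 (YLR153C, chromosome XII), which activates acetate in the nucleus and cytosol, was at -1.19, -1.42 and -1.37 in Sun049T-Z, -0.68, -0.25 and -0.49 in Sun224T-K and -0.13, -0.20 and -0.11 in Hyb-8, above both, with a departure of 0.75 (standard error 0.11, adjusted p = 0.000947 from limma). The acetaldehyde dehydrogenase ALD6 departed by 0.63. For the second acid in the medium, formate dehydrogenase FDH1 (YOR388C, chromosome XV) was at -1.80, -1.97 and -1.91 in Sun049T-Z, 0.76, 0.44 and 1.03 in Sun224T-K and 1.54, 0.85 and 1.53 in Hyb-8, which overlapped Sun224T-K. Its departure was 1.89 (standard error 0.18, adjusted p = 0.000101 from limma) beside an offset of 1.32. In all, 2 of 16 genes of one-carbon metabolism were above (4 without Sun049T-Z replicate 1).

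Among genes of reserve carbohydrates more fell than rose, with 7 of 21 genes below and 1 above, and a median of -0.21 that was lower still with the slide as a block (-0.37). Neutral trehalase NTH2 departed by -1.03, glycogen synthase GSY1 by -0.85 and the glycogenin GLG2 by -0.84. The only gene above was GAC1 (0.31), a phosphatase subunit whose call was lost under several alternatives. The glycerol phosphatases moved apart, GPP1 by 1.32 and GPP2 by -1.11.

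Among chaperone genes more fell than rose. Among HSP90 and HSP70 chaperones and their partners, 14 of 28 were below and 2 above, with a median of -0.33 (-0.35 with the slide as a block) beside an offset of -0.39. The inducible Hsp90 gene HSP82 (YPL240C, chromosome XVI) was at 5.04, 4.93 and 4.94 in Sun049T-Z, 3.10, 3.01 and 3.09 in Sun224T-K and 3.09, 3.16 and 3.21 in Hyb-8. Hyb-8 and Sun224T-K overlapped far below Sun049T-Z, and the departure was -0.86 (standard error 0.078, adjusted p = 8.67e-05 from limma) beside an offset of -0.95. The Hsp70 genes SSA1 and SSA3 departed by -0.84 and -0.87. Of the small heat shock list, 6 of 13 genes were below and 1 above. That gene, HSP30 (YCR021C, chromosome III), a membrane protein that restrains the plasma membrane proton pump, departed by 1.25 (standard error 0.20, adjusted p = 0.00161 from limma). In the endoplasmic reticulum 3 of 23 folding genes were above (1 without Hyb-8 replicate 2 or 3) and 5 below, led by the disulfide isomerase family member EPS1 (0.80) and the oxidase ERO1 (-0.80).

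Of 35 genes of oxidative stress defence, 6 were above (17.1%, against 17.5% of all genes) and 10 below (28.6% against 17.6%), although scaling to ACT1 or leaving out Hyb-8 replicate 2, Hyb-8 replicate 3 or Sun049T-Z replicate 2 left only 6 below, near the share of all genes. Cytosolic catalase CTT1 (YGR088W, chromosome VII) was at 2.85, 2.89 and 2.80 in Sun049T-Z, 2.92, 2.41 and 2.75 in Sun224T-K and 2.03, 1.29 and 1.91 in Hyb-8. The parental strains overlapped and Hyb-8 was lower on every array, with a departure of -1.03 (standard error 0.17, adjusted p = 0.00193 from limma). The mitochondrial cytochrome c peroxidase CCP1 (YKR066C, chromosome XI) departed by -1.12 (standard error 0.08, adjusted p = 2.55e-05 from limma), and the flavohemoglobin YHB1 (YGR234W, chromosome VII), which detoxifies nitric oxide, departed by -2.56 with an offset of -1.71. The NADPH quinone reductase ZTA1 (YBR046C, chromosome II) rose instead, from 0.30, 0.064 and 0.12 in Sun049T-Z and 0.31, -0.33 and 0.27 in Sun224T-K to 1.37, 1.43 and 1.25 in Hyb-8, without overlap. Its departure was 1.22 (standard error 0.15, adjusted p = 0.000352 from limma). Glutathione transferases GTT1 and GTT2 departed by 1.63 and 1.23 at about the level of Sun224T-K, and the level of GTT1 was uneven in Sun049T-Z, at -0.25, 1.86 and 1.89.

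Weak acid genes under Haa1 and War1 gave no common direction, with 2 of 17 above (11.8%) and 4 below (23.5%). The membrane proteins YRO2 and MRH1 departed by 1.62 and 1.07, between the parental means and nearer to Sun224T-K. The sphingolipid hydroxylase SUR2 (YDR297W, chromosome IV) departed by -1.34 (standard error 0.12, adjusted p = 8.92e-05 from limma) and lay below all parental arrays. In plasma membrane cation transport 6 of 17 genes were above and 2 below. The sodium pump gene ENA1 (YDR040C, chromosome IV) was at -2.70, -4.83 and -4.44 in Sun049T-Z, 1.21, 1.12 and 1.18 in Sun224T-K and 1.84, 1.57 and 1.83 in Hyb-8. Hyb-8 stood narrowly above Sun224T-K and far above Sun049T-Z, with a departure of 3.16 (standard error 0.38, adjusted p = 0.000365 from limma) and an offset of 2.58. Its tandem copy ENA5 is near-identical, so both probes may read the same transcripts. The plasma membrane proton pump PMA1 (YGL008C, chromosome VII) departed by 1.27 with an offset of 1.55, between the parental means. The vacuolar proton pump had 6 of 20 genes above (0 without Hyb-8 replicate 2 or 3, 2 without Sun224T-K replicate 3 or with the slide as a block, 3 without Sun049T-Z replicate 2 or Sun224T-K replicate 2) and 2 below. Among drug efflux genes 3 of 20 were above (15%) and 4 below (20%, and 7 genes without Sun224T-K replicate 2), near the shares of all genes. The transporter PDR10 (0.71) lay above both parental strains and FLR1 (-0.93) near Sun224T-K.

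Among sulfur genes more fell than rose. In sulfate assimilation and methionine synthesis 5 of 33 genes were above (15.2%) and 10 below (30.3%). The count above was 2 without Hyb-8 replicate 1, 2 or 3, and 3 without Sun049T-Z replicate 2 or Sun224T-K replicate 3. The list's median was -0.27 (-0.35 with the slide as a block, -0.38 and -0.40 within slides 2 and 3). The sulfonate transporter SOA1 (YIL166C, chromosome IX) was at -4.41, -3.90 and -3.79 in Sun049T-Z, -2.98, -3.48 and -3.04 in Sun224T-K and -1.13, -0.59 and -0.73 in Hyb-8. Its groups did not overlap, and the departure was 2.79 (standard error 0.18, adjusted p = 1.68e-05 from limma), or 6.9-fold. S-adenosylmethionine synthetase SAM1 (YLR180W, chromosome XII) departed by -1.31 (standard error 0.12, adjusted p = 9.52e-05 from limma) and the siroheme synthase MET8 (YBR213W, chromosome II) by -1.25, both below all parental arrays. The sulfhydrylase MET17 (YLR303W, chromosome XII) varied within Hyb-8, at -2.84, -1.78 and -2.87, and 1 of those arrays overlapped the parental strains. Methylene tetrahydrofolate reductase MET13, which feeds methionine synthesis, departed by -1.39.

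Genes for other nutrients also went both ways. In allantoin and urea use 3 of 15 genes were above (1 without Sun224T-K replicate 3 or Hyb-8 replicate 1 or 3) and 7 below, and the 4-aminobutyrate permease UGA4 (YDL210W, chromosome IV) departed by -1.32 (standard error 0.12, adjusted p = 8.52e-05 from limma) and urea amidolyase (DUR1,2) by -0.96. In thiamine synthesis and uptake 2 of 22 genes were above and 9 below, led by the related pyridoxine genes SNZ2 and SNZ3 (-1.62 and -1.47) and the transporter gene THI73 (-1.37). The thiamine-repressible acid phosphatase gene PHO3 was well above background on 0 of 3 Sun049T-Z arrays, and it was at least 2.78-fold above the mid-parent value with that strain set at its lowest measurable signal (adjusted p = 0.00094 by limma). The phosphate transporter PHO84 (YML123C, chromosome XIII) was at 0.88, 0.40 and 0.082 in Sun049T-Z, -1.98, -1.72 and -1.97 in Sun224T-K and -3.08, -3.43 and -3.20 in Hyb-8. Its 3 groups were separate, and its departure was -2.52 (standard error 0.17, adjusted p = 1.68e-05 from limma). In the phosphate list as a whole 5 of 26 genes were above (19.2%) and 7 below (26.9%). Only 3 were above without Hyb-8 replicate 1 or 3, and 2 with only probes well above background on all 9 arrays. With parental levels averaged on the linear scale, 0 passed above. Below were 4 without Hyb-8 replicate 3. Nitrogen permeases and regulators were split, with 8 of 36 above (22.2%) and 9 below (25%). The count above was 4 without Hyb-8 replicate 3, and 5 without Hyb-8 replicate 1, Sun224T-K replicate 1 or Sun224T-K replicate 3. The proline permease PUT4 departed by 1.43 and the oligopeptide transporter OPT2 (YPR194C, chromosome XVI) by -1.55 (standard error 0.15, adjusted p = 0.000125 from limma). OPT2 was at -3.94, -3.88 and -3.80 in Sun049T-Z, -2.54, -2.06 and -2.61 in Sun224T-K and -4.46, -4.99 and -4.61 in Hyb-8, so that Hyb-8 was on the far side of Sun049T-Z from Sun224T-K.

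The Ehrlich pathway turns amino acids into fusel alcohols. Of 20 genes of aromatic amino acid synthesis and this pathway, 7 were above and 2 below. The count above was 4 with the normexp background and 3 with parental levels averaged on the linear scale. Phenylpyruvate decarboxylase ARO10 (YDR380W, chromosome IV) was at -1.22, -0.89 and -0.74 in Sun049T-Z, 0.55, -0.57 and 0.35 in Sun224T-K and 1.44, 1.21 and 1.16 in Hyb-8, above both, with a departure of 1.69 (standard error 0.23, adjusted p = 0.000675 from limma). The aminotransferase ARO9 departed by 0.76, also above all parental arrays. The first enzyme of aromatic synthesis, ARO3, departed by 2.68, which was less than its offset of 3.12, and it was well above background on only 2 of 3 Sun049T-Z arrays. Arginine, histidine and lysine genes had 8 of 26 above (5 with the normexp background and 4 when scaled to ACT1) and 4 below, with HIS7 (0.97) and LYS21 (0.75) on the upper side and ARG1 (-0.47) on the lower. Of the branched-chain genes, BAT2 (0.75) and LEU1 (-0.76) were farthest apart. In purine and pyrimidine synthesis 8 of 28 were above and 3 below (1 without Sun049T-Z replicate 2 or Sun224T-K replicate 3 or Hyb-8 replicate 1, 2 or 3 or with the slide as a block), led by ADE2 (0.95) and the CTP synthase URA8 (-0.91).

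Several sporulation genes rose in Hyb-8. Of 35 genes of meiosis and sporulation, 14 were above the mid-parent value, 7 of them by 2-fold or more, and 3 were below (8 above with the normexp background). The spore wall gene SPS100 (YHR139C, chromosome VIII) was at 2.04, 1.93 and 1.90 in Sun049T-Z, 2.27, 1.22 and 2.22 in Sun224T-K and 3.76, 4.36 and 3.64 in Hyb-8. Its parental strains overlapped through Sun224T-K replicate 2 alone, with an offset of -0.026. The departure of SPS100 was 1.99 (standard error 0.24, adjusted p = 0.000394 from limma). The septin SPR3 (YGR059W, chromosome VII) departed by 1.43 and the meiotic repressor RME1 (YGR044C, chromosome VII) by 1.41, each above all parental arrays. The summed linear level of 8 sporulation markers, of which 6 were well above background on all 9 arrays, was 4.42 to 4.91 in Sun049T-Z, 2.96 to 5.85 in Sun224T-K and 13.9 to 22.0 in Hyb-8. SPS100 alone made up most of each of these sums, so they say little about the other markers. Whether a share of sporulating cells moved with these genes was not tested, and more such cells and more RNA per cell cannot be told apart in bulk RNA. Mating-type and haploid-specific genes had 6 of 23 above (3 without Hyb-8 replicate 3, 1 with the normexp background). Below were 2 (4 without Sun224T-K replicate 2 or Hyb-8 replicate 2 or with the slide as a block). Among cyclins 8 of 22 were above and 2 below. The mitotic cyclin CLB2 (YPR119W, chromosome XVI) was at -5.67, -5.66 and -5.61 in Sun049T-Z, -3.63, -3.54 and -3.27 in Sun224T-K and -2.76, -3.22 and -2.72 in Hyb-8, an ordered series with a departure of 1.66 (standard error 0.13, adjusted p = 4.48e-05 from limma). The mitotic inhibitor SWE1 departed by -0.94. Of the histone genes, only HHT2 (0.75) was above, and the linker histone HHO1 (-0.80) was the lowest of 4 below among 13.

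In DNA repair and telomere maintenance 11 of 34 genes were below and 3 above. The telomerase subunit gene EST1 (YLR233C, chromosome XII) lay below both parental strains. It was at -3.54, -3.80 and -3.71 in Sun049T-Z, -2.19, -2.16 and -2.13 in Sun224T-K and -6.57, -6.66 and -7.11 in Hyb-8, where 2 of 3 arrays were well above background. Its departure was -3.86 (standard error 0.13, adjusted p = 3.84e-07 from limma) with an offset of opposite sign, 0.76. Of the same enzyme, EST3 departed by 0.72. The nucleotide excision repair gene RAD16 departed by -1.28, slightly below Sun224T-K. The photolyase gene PHR1 was dim in Sun224T-K and Hyb-8 alike, with a measured departure of -3.50 and an offset of -3.90.

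At the cell surface, 16 of 47 cell wall genes were above and 5 below. PST1, a wall protein induced by wall damage, departed by 1.56 (offset 1.70), the glucanase EXG1 by 1.27 (offset 1.06) and the wall glycoprotein CIS3 by 1.06 (offset 1.20), all close to Sun224T-K. The mannoprotein gene DAN4 (YJR151C, chromosome X) differed in that the parental strains overlapped, with an offset of -0.0019. DAN4 was at -2.55, -2.56 and -2.72 in Sun049T-Z, -2.63, -2.77 and -2.44 in Sun224T-K and -1.58, -0.84 and -2.03 in Hyb-8, above both but spread over more than 1 log2 unit, with a departure of 1.13 (standard error 0.22, adjusted p = 0.00409 from limma). The related gene DAN1 (YJR150C, chromosome X) was well above background on no Hyb-8 array and departed by -2.54 as measured. The polygalacturonase gene PGU1 (YJR153W, chromosome X) was well above background in Sun224T-K and Hyb-8 only, and its departure of 2.65 becomes at least 1.74 with Sun049T-Z set to the lowest measurable signal. The COS genes, a subtelomeric family of membrane proteins, had 9 of 11 above and 2 below, and the Y' helicases 7 of 8 above. For 7 of the 11 COS genes every Hyb-8 array was above all parental arrays, against 6.22% of all genes tested. The 7 include COS3 (departure 0.94, offset 0.63) and COS2 (0.84, offset 0.53), both bright on all arrays. Those below were COS1 (-2.70, offset -3.29), between the parental means and nearer to Sun224T-K, and COS7, which was dim on every Sun224T-K and Hyb-8 array. The helicase gene YRF1-8 departed by 2.16 beside an offset of 2.03. Copies of these families are nearly alike in sequence, so single members are uncertain. Of 24 seripauperin genes, 3 were above (1 without Hyb-8 replicate 2 or 3) and 4 below.

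Few genes of cell growth passed. Of 137 genes for cytosolic ribosomal proteins, 21 were above (15.3%, against 17.5% of all genes) and 6 below (0 without Hyb-8 replicate 3, 2 without Hyb-8 replicate 1). The count above fell to 10 without Hyb-8 replicate 2, 12 without Hyb-8 replicate 3, 13 without Sun224T-K replicate 3, 12 with the normexp background and 9 when scaled to ACT1, and the median of 0.17 was 0.055 with the slide as a block. RPL16A departed most, by 0.65. Ribosome biogenesis factors had 6 of 66 above (3 without Sun049T-Z replicate 2 or Sun224T-K replicate 1 or 3 or Hyb-8 replicate 1 or 3 or with the slide as a block, 12 without Sun224T-K replicate 2) and 5 below (0 without Hyb-8 replicate 2 or 3 or with the slide as a block, 3 without Sun049T-Z replicate 3 or Sun224T-K replicate 3 or Hyb-8 replicate 1), with BFR2 (1.05) first. For the proteasome 3 of 36 were above (1 without Sun049T-Z replicate 2 or Hyb-8 replicate 2 or 3) and 4 below (0 without Hyb-8 replicate 3).

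Apart from the function lists, the highest departures among genes bright on all 9 arrays included YEL067C (chromosome V) (2.36), YNL337W (chromosome XIV) (2.40) and YGL072C (chromosome VII) (2.27), and the lowest included YDL218W (chromosome IV) (-2.52) and the permease gene FCY21 (YER060W, chromosome V) (-2.06). YJR149W (chromosome X) is an example of a gene on which the parental strains differed little and Hyb-8 alone was low. It was at -0.92, -1.08 and -0.90 in Sun049T-Z, -1.23, -1.21 and -1.11 in Sun224T-K and -3.32, -3.27 and -3.12 in Hyb-8, with a departure of -2.16 (standard error 0.088, adjusted p = 1.15e-06 from limma). The 5 genes farthest above both parental means were TIS11, SOA1, FET3, SPS100 and SIT1, and the 5 farthest below as measured were EST1, HXT9, DAN1, YJR149W and SDH9. The order below is not exact, since EST1 was dim on 1 Hyb-8 array and DAN1 was 1 of 7 genes below by 2-fold that were dim throughout Hyb-8 alone.

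Few genes with large parental differences had Hyb-8 levels near the log2 mid-parent value. The parental strains differed on 3463 genes (58.2%) at an adjusted p under 0.05 by limma. Of 269 genes at least 4-fold apart between them at an adjusted p under 0.05, the Hyb-8 mean was above both for 62, below both for 31, between and nearer to Sun224T-K for 170, and between and nearer to Sun049T-Z for 6. Of the 180 that were well above background on all 9 arrays, 19 did not pass the test of departure. YOL014W (chromosome XV) came closest to the mid-parent value, at -0.0071, 0.034 and -0.033 in Sun049T-Z, -2.46, -2.61 and -2.62 in Sun224T-K and -1.16, -1.49 and -1.24 in Hyb-8, with a departure of -0.013 (standard error 0.096). Next were YPR002C-A (0.032, standard error 0.20), the spore wall gene OSW2 (0.036, standard error 0.13), YFL057C (-0.097, standard error 0.27) and YBR051W (0.17, standard error 0.27). A departure that missed the threshold does not show that these levels were additive. Departures here are from the log2 average, and the count was not repeated with the linear one, which lies nearer to the higher parent.

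For some 2-fold genes at least 1 strain was well above background on no array, so their departures are bounds or are not bounded. In all 27 such genes above, a parental strain was dim and Hyb-8 was not. With the dim strain set per array to the higher of its own signal and the dimmest signal of any probe well above background, ENA5 (YDR038C, chromosome IV) was at least 29.7-fold above the mid-parent value, the maltose activator MAL13 (YGR288W, chromosome VII) at least 4.65-fold, the killer toxin defence gene KTD1 (YAR028W, chromosome I) at least 4.67-fold and YGR122C-A (chromosome VII) at least 4.4-fold. Of 27 such genes below, Hyb-8 was the only dim strain for 7, and both Hyb-8 and a parental strain were dim for 20, where no bound holds. The latter include YOR385W (chromosome XV), REE1 (YJL217W, chromosome X) and the iron gene FRE3. FRE3, FIT2, FIT3, YOR385W and PHR1 stand close together by systematic name on the right arm of chromosome XV, and all were bright on Sun049T-Z arrays. That they are neighbours was noticed after their values were seen.

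The mid-parent value depends on the scale on which the parents are averaged. Independent alleles give the average of amounts, and the log2 average used here lies below it where the parental strains differ. With parental levels averaged as linear intensities, which moves the mid-parent value towards the higher parent, 821 genes (13.8%) were above and 1154 (19.4%) below at an adjusted p under 0.05 by limma's moderated variance, and 93 and 220 at 2-fold or more. Of the 2088 genes that passed on the log2 scale, 1866 passed in the same direction on the linear scale and 0 in the opposite direction. SPS100, whose parental offset was -0.026, departed by 1.99 on the log2 scale and 1.99 on the linear one, and TIS11 (offset 0.48) by 3.45 and 3.37. With larger parental differences, values fell further for ENA1 (from 3.16 to 1.54) and for COS1 (from -2.70 to -5.00).

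Chromosome medians were near 0 with 1 exception. On chromosome IX the median departure of 216 genes was 0.289, with 89 above and 17 below, and the median offset was 0.268. The left arm (174 genes, median 0.281) and the right arm (42 genes, median 0.348) both stood above 0. On the 15 other nuclear chromosomes the medians lay between -0.044 and 0.083. Of the genes described above, MGA2, FAA3, POT1, SOA1, GTT1, GPP1, EPS1, EST3 and RPL16A were above the mid-parent value on chromosome IX, and COX5B and IMA3 on it were below.

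**Figure D5:**
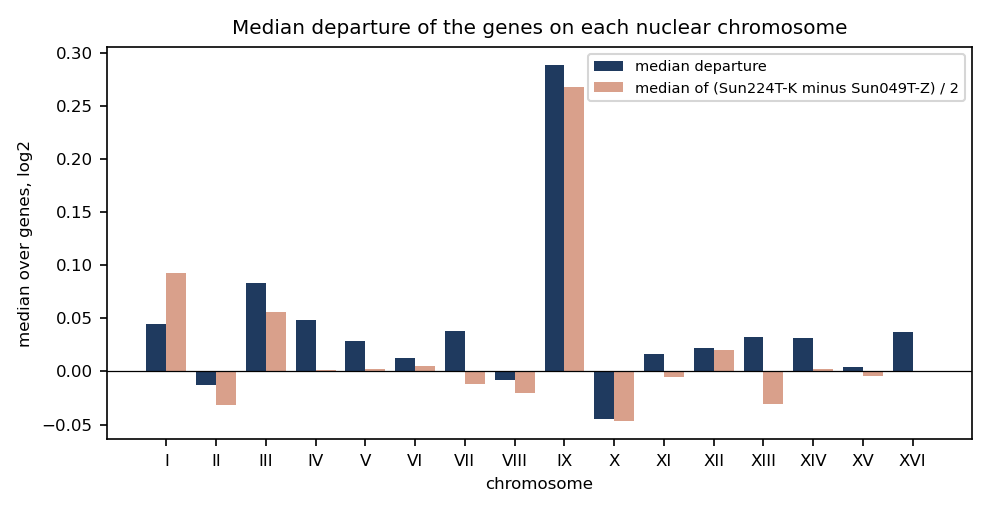
Median departure (dark bars) and median parental offset (light bars) of the genes tested on each of the 16 nuclear chromosomes, on the log2 scale. Chromosome IX stands out in both, at 0.289 and 0.268, and the departures of the others lie between -0.044 and 0.083.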

How the data were processed

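Arrays were 1-colour Agilent yeast arrays, 3 per strain. Deposited for each array was scanner output of Agilent Feature Extraction 10.1.1.1, in which the authors' spot intensity is linear and background-subtracted. They also deposited a table of log2 values from GeneSpring GX, in which each probe was centred on its median over the 9 arrays. Within each array these values tracked the centred scanner values, with correlations of at least 0.998. This comparison cannot show how each array was shifted. The table served as an alternative.

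Outlier and control spots were left out. Probes were tested where some strain had them well above background on its 3 arrays (309 were not). The contrast was fitted with lmFit and eBayes of limma 3.58.1 (R 4.3.3) over all 9 arrays, strain being the only term, and was checked on simulated arrays. Symbols came from assembly R64 for 5756 probes and from the files for 500. Signal over background and array number limit precision.

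The members, lists, tests and rule for named genes were chosen with earlier results of these data known. The rule takes the 10 highest and lowest 2-fold departures bright on all arrays, up to 3 passing genes per list and direction, the 5 farthest outside both parents each way, the 5 nearest the mid-parent value among parental differences of at least 4-fold, up to 5 dim genes each way, PHO13 and ACT1. The departure of ACT1 was -0.00058. The alternatives varied background correction, normalization, filter, spots, averaging scale, fold threshold, moderation, weights, blocks and arrays. Sequences were not used here.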

Additional observations from a re-analysis of the deposited data

How the results depend on the processing

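Of the 2088 genes that passed, at least 1357 also passed in the same direction under each setting that kept them in the test, and 0 passed in the opposite direction. Weighting arrays by quality raised the counts to 1755 above and 1700 below. The normexp background lowered the count below to 678 and the 2-fold counts to 112 above and 63 below. The linear-scale average gave 93 and 220 genes at 2-fold, and a threshold of 1.5-fold gave 506 and 461. Leaving out 1 array gave 686 to 1176 genes above and 692 to 1124 below, and 171 to 198 and 124 to 139 at 2-fold. The lowest counts, 686 and 692, came without Hyb-8 replicate 3. The cause of these shifts was not tested. Deviations of same-numbered arrays of different strains had correlations of -0.246 to 0.151 over 9 pairs. Those of differently numbered arrays were -0.365 to 0.356 over 18 pairs. With 3 arrays per strain, these values cannot show whether the replicate number pairs the arrays. With the replicate number as a block 933 genes were above and 929 below, with 1825 of the 2088 genes shared.

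Some list medians close to 0 changed sign. That of zinc was -0.019 without Sun049T-Z replicate 3 and -0.0099 without Hyb-8 replicate 1, that of copper 0.027 within slide 3, and that of hexose transporters 0.021 with the normexp background. Without Sun049T-Z replicate 1, the pentose phosphate median was 0.015, that of formate metabolism -0.032 (-0.036 within slide 2) and that of nitrogen permeases -0.0077. The proteasome median was -0.0079 with quantile normalization, -0.0037 without Sun049T-Z replicate 2, -0.0044 without Hyb-8 replicate 3 and -0.011 within slide 3. Over the sets with 1 array left out, the highest or lowest medians on the other side of 0 were 0.10 (zinc), -0.11 (pentose phosphate), 0.12 (formate), 0.052 (proteasome) and 0.11 (nitrogen permeases). The medians of arginine, leucine, phosphate, glycerol, maltose, weak acid, endoplasmic reticulum folding, ribosome biogenesis, histone, DAN and TIR and seripauperin genes also crossed 0 under some setting, at most 0.27 and at least -0.43. These 18 medians give no direction for their lists. Counts of a list also moved with single arrays or the slide, and the larger moves are given beside many of them. Scaling to ACT1, the array median or quantiles moved the median departure of all genes by less than 0.1.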
